A study of Mus musculus with 44 samples.

Results

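The major urinary proteins are small secreted carrier proteins of the lipocalin family that the mouse liver makes in large amounts and that leave the body in urine, where they bind and slowly release volatile pheromones. They are encoded by a cluster of near-identical genes and pseudogenes on chromosome 4, and in the liver their transcription depends on growth hormone released in pulses, on STAT5 and on androgens, so that adult males express far more than females. The listed genes were Mup1, Mup3, Mup7, Mup9, Mup11, Mup12, Mup15, Mup17, Mup20 and Mup21, 10 of the 35249 genes in the count table. These members were chosen by name with their lower counts on the choline-deficient diets in wild-type livers already known, so the wild-type diet values are described here and not tested. All 10 passed the filter on low counts, which they could do through the control groups alone.

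Liver RNA was sequenced from 44 mice, 1 library per mouse, in 9 groups of genotype and diet. Besides wild-type mice (WT), there were mice lacking the kinase gene Ripk3 (Ripk3KO, Ripk3-/-) and mice lacking Mlkl (MlklKO, Mlkl-/-), which encodes the membrane-disrupting effector of necroptosis, a lytic form of cell death. From the age of 2 months and for 6 months they ate either normal chow (control) or a choline-deficient one, which was low in fat (CD-LFD) or high in fat (CD-HFD). The groups held 6 WT mice per diet, 6, 3 and 4 Ripk3KO mice and 6, 4 and 3 MlklKO mice on control, CD-LFD and CD-HFD in that order. The labels give the knockouts by genotype alone and name no sex, litter or batch.

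Total counts were 2476268 to 12471844 in 43 libraries and 88204703 in the remaining one, WT CD-LFD replicate 3. Ripk3 had a median of 0.126 CPM (counts scaled to the library total) or less in each Ripk3KO group, against 1.08 to 3.28 in the WT groups, but Ripk3KO control replicate 5 was at 1.01, above 3 of the 6 WT control libraries. Mlkl transcript was still counted in MlklKO livers, at 3.55, 6.02 and 14.4 CPM on CD-HFD (17.2 to 22.6 in WT), the last in a library labelled as replicate 1 of that group. The Y-linked gene Ddx3y was at 33.7 CPM or more in all 44 libraries. Xist was at 1.91 CPM or less in 43 libraries and at 11.7 in Ripk3KO CD-LFD replicate 3. Predicted and Riken-named genes took 1.16% and 1.45% of counts in WT control replicates 5 and 6, against 0.828% to 0.913% in the other WT controls, although libraries of other groups reached 1.38%. For these measures WT control replicates 5 and 6, Ripk3KO CD-LFD replicate 3 and MlklKO CD-HFD replicate 1 were also left out together. The ratio of the clock genes Arntl and Dbp, which cycle in opposite phase over the day, split the libraries into 11 on a high and 33 on a low side. The high side held 4 of 6 WT control, 6 of 6 WT CD-LFD and 1 of 6 WT CD-HFD libraries and none from a knockout, so this split and genotype cannot be told apart on CD-LFD. The split is coarse, at a log2 gap of 0.866 where the next largest was 0.719. Within the low side the log2 ratio was -4.68 to -3.44 in MlklKO control and -4.98 or less in every other knockout library. Differences of MlklKO control from the other MlklKO groups and from Ripk3KO control therefore cannot be told apart from clock phase. A covariate of the side alone does not adjust for this.

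Because the copies are so alike, the sequences bear on what a count per gene means. In the GENCODE M21 transcripts (GRCm38), 7 members come first along the cluster, in the order Mup7, Mup9, Mup1, Mup11, Mup12, Mup15 and Mup17, and are called central members here. Their coding sequences were 98.4% to 99.6% identical in all 21 pairs. Mup20, Mup3 and Mup21 follow them on the chromosome, were 87.1% to 94.8% identical with each other, and 82.4% to 91.4% identical with the central members. Of all stretches of 100 bases in a gene's transcripts, only 2.7% were found in no transcript of another gene for Mup15, 22.5% for Mup12, 44.3% for Mup1, 61.2% for Mup20, 95.5% for Mup21 and 97.8% for Mup3. Counts of a single central member are therefore uncertain, since reads could be split among copies or dropped, and how the counting treated such reads is not given in the sources used here. Coding bases 244 to 303 (numbered on Mup17) show the contrast, with capitals for bases that differ from Mup17. Mup7 and Mup9 are identical to Mup17 here, and Mup11, Mup12 and Mup15 to Mup1.
Mup17: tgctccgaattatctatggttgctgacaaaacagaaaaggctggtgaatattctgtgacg
Mup1: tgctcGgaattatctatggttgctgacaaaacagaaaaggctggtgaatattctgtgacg
Mup20: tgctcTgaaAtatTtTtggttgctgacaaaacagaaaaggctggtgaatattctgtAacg
Mup3: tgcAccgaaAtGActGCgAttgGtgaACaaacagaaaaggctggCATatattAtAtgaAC
Mup21: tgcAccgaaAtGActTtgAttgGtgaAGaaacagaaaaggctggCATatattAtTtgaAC
The 60 bases of Mup20 differed from Mup17 at 5 positions, those of Mup21 at 16 and those of Mup3 at 17.

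Promoter windows (RefSeq, GRCm38.p6, from 250 bases before to 50 after the annotated start) were found for 7 of the 10 members. The windows of Mup15 and Mup17 were 98.7% identical, those of Mup3 and Mup21 92.9%, and those of Mup17 and Mup3 77.6%. The motifs below were searched on both strands, and only one of them was found in the members, so that none overlapped another. The core letters TGTTTNC bound by FOXA factors were present in 6 of the 7 windows, Mup3 being the exception, against 20.5% of all 32851 windows. The member windows are related copies, those of Mup15 and Mup17 being 98.7% identical, so these 6 are not independent of each other. TATAAA, the STAT5 palindrome TTCNNNGAA and the C/EBP letters TTGCNNAA were in none of the 7, against 13.6%, 8.3% and 10.8% of all windows. The 250 bases before the start are shown for Mup17, a central member, at chr4:61595833-61596082 on the minus strand. Those of Mup3, a peripheral member, are at chr4:62087318-62087567 on the minus strand. From control to CD-HFD, Mup3 changed by -3.63 in Ripk3KO and -3.65 in MlklKO on the log2 scale. Among members with TGTTTNC, Mup17 changed more (-8.28 and -7.55) and the peripheral Mup21 less (-2.66 and -3.02). Whether the motif bears on the diet changes was not tested. Capitals mark TGTTTNC, read on the opposite strand.
Mup17: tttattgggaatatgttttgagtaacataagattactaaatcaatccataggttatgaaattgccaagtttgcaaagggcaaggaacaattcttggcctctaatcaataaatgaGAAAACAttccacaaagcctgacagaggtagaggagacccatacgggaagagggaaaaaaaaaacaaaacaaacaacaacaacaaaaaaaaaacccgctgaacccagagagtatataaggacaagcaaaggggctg
Mup3: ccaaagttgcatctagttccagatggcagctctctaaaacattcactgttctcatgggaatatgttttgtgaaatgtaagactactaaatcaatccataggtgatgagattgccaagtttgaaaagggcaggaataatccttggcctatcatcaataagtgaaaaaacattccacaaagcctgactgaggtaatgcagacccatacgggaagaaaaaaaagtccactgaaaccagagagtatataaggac

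Levels on the control diet were compared between genes per kilobase of exon, as TMM-scaled CPM (counts scaled to library totals with a correction that offsets a few very abundant genes) divided by length. In WT control livers Mup20, which encodes the male pheromone protein darcin, stood at 8320 ± 2860 (SD, n = 6) and Mup3 at 7650 ± 1070. Mup7 followed at 1320 ± 563, then Mup17 at 529 ± 578, Mup21 at 487 ± 258 and Mup11 at 443 ± 443. Mup15 was at 123 ± 91, Mup12 at 95.3 ± 64.5, Mup1 at 16.5 ± 7.58 and Mup9 at 9.29 ± 9.15. Differences between Mup20 and Mup3, and among Mup17, Mup21 and Mup11, were smaller than the SD. The length used was that of all exons, while unique stretches of 100 bases ran from 2.7% for Mup15 to 97.8% for Mup3. A lower level of a central member therefore cannot be told apart from reads split among copies or dropped. All 44 rows named Mup together, 22 of them pseudogenes, took 1.35% to 2.15% of the counts of a WT control library. The 34 other rows held only 0.459% to 3.4% of the Mup counts of any library, and 14 of them passed the filter.

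The summed Mup share was lower on CD-HFD in every genotype, and its makeup differed even more. All Mup rows held 1.73% ± 0.275 (SD, n = 6) of counts in WT control livers, 1.07% ± 0.186 on CD-LFD and 0.624% ± 0.0928 on CD-HFD. Ripk3KO livers had 1.45% ± 0.18 (n = 6), 1.25% ± 0.299 (n = 3) and 0.595% ± 0.169 (n = 4). MlklKO livers had 1.06% ± 0.251 (n = 6), 1.29% ± 0.19 (n = 4) and 0.401% ± 0.0749 (n = 3). No CD-HFD library reached the lowest control library of its genotype. On CD-LFD the libraries overlapped with control in all 3 genotypes. Mup20 made up 39.2% ± 9.82 of the Mup counts in WT control livers and 85.5% ± 2.55 on CD-HFD. In Ripk3KO it went from 31.3% ± 3.9 to 83% ± 4.58 and in MlklKO from 33.5% ± 3.01 to 83.1% ± 2.94. The 7 central members together went from 14.4% ± 5.26 of the Mup counts to 0.363% ± 0.299 in WT, from 15.2% ± 5.94 to 0.287% ± 0.184 in Ripk3KO and from 12% ± 4.81 to 0.212% ± 0.0927 in MlklKO. This sum does not depend on how reads were split among those 7 copies, though reads dropped for matching several copies would be missing from it.

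**Figure D1:**
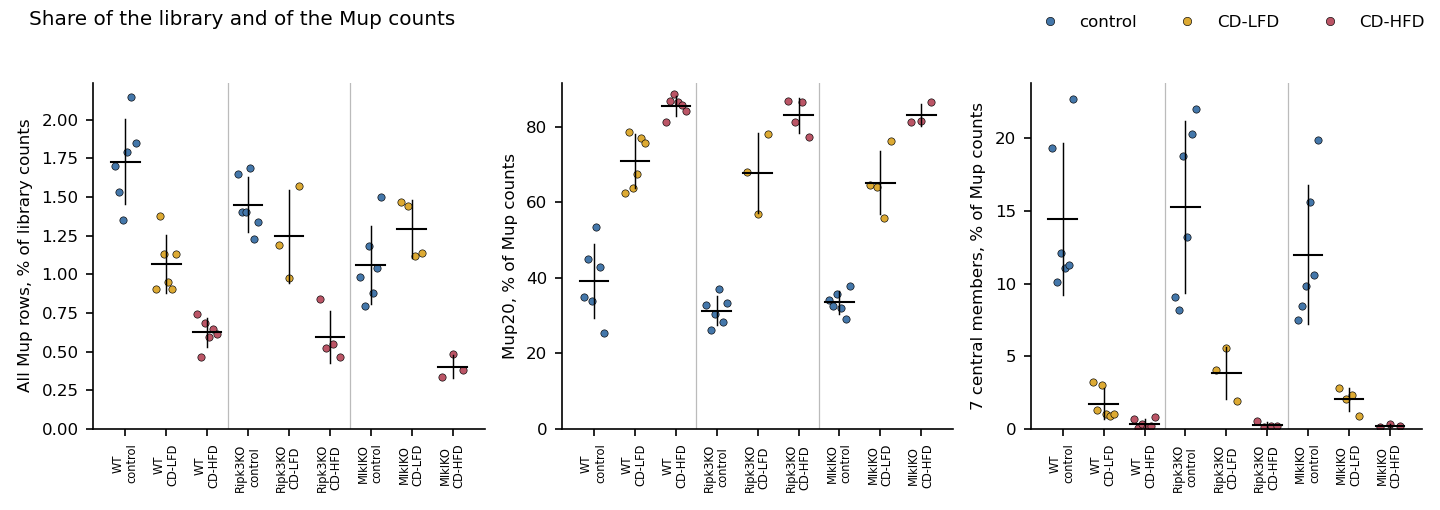
Each point is 1 liver, with the mean (line) and SD (bar) of its group; the vertical axes give all Mup rows as percent of the library's counts, and Mup20 and the 7 central members as percent of the Mup counts. Mup20 takes 77.3% or more of the Mup counts in every CD-HFD library, and the central members 0.795% or less.

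The WT livers, whose values chose the genes, set the scale. Mup7 was at 560 to 2030 TMM-scaled CPM (median 1310) in the 6 control livers, 14.7 to 246 (median 41.5) on CD-LFD and 0.649 to 15.3 (median 3.63) on CD-HFD. Mup3, the most abundant member beside Mup20, was at 6820 to 10100 (median 8030), 1380 to 3440 (median 2280) and 445 to 915 (median 599). Both genes had separate ranges on the 3 diets, with CD-LFD between the others, except that the highest CD-HFD value of Mup7 (15.3) lay above its lowest on CD-LFD (14.7). Mup20 was at 4810 to 11300 (median 7260), 5610 to 9760 (median 6520) and 3220 to 4920 (median 4410), so that control and CD-LFD overlapped throughout. The log2 difference of CD-HFD from control was -8.04 (SE 0.773) for Mup7, -3.68 (SE 0.214) for Mup3 and -0.86 (SE 0.212) for Mup20. The other members lay between the Mup7 and Mup20 values, but without WT CD-HFD replicate 6 Mup7 was at -8.79 and Mup15 moved from -7.77 to -9.89. All 10 members were lower on CD-HFD than on control at the threshold used for the tests (24.1% of all genes were), 8 on CD-LFD (14% of all genes) and 9 on CD-HFD against CD-LFD (7.4% of all genes), and nothing is read from these counts. With library totals in place of TMM scaling, the lower share of called genes moved from 50.6% to 13%, from 50.4% to 15.1% and from 35% to 14.1% in these comparisons.

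**Figure D2:**
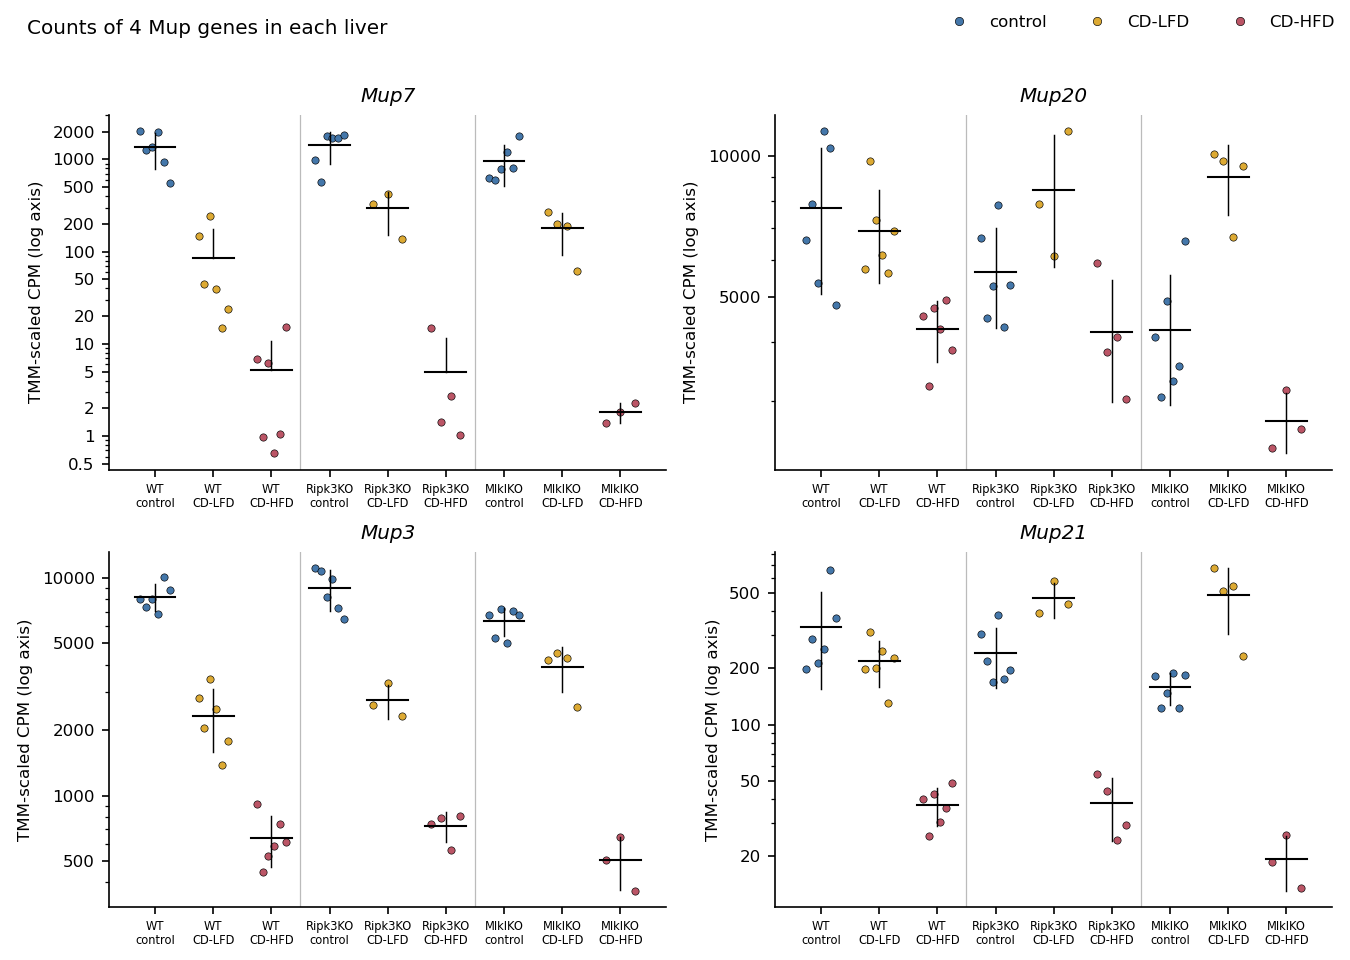
TMM-scaled CPM of Mup7, Mup20, Mup3 and Mup21 in each liver on a log axis, with group means (line) and SD (bar, lower arm left off where it would pass 0). Mup7 is lowest on CD-HFD in every genotype, and within each knockout the group means of Mup20 and Mup21 are highest on CD-LFD.

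The diet comparisons within each knockout share no library with the WT comparisons and could be tested, with Mup15 already known to be lower on CD-HFD in Ripk3KO. On CD-HFD 9 of the 10 members, the already known Mup15 among them, fell in Ripk3KO livers against control and none rose (edgeR quasi-likelihood F test, Benjamini-Hochberg adjusted p under 0.05). Among all 14862 genes tested 21.7% were lower and 24.6% higher, and the median log2 change was -5.74 for the members and -0.05 for all genes. In MlklKO livers 10 of 10 fell, where 20.3% of all genes were lower and 24.9% higher, with medians of -5.7 and -0.04. With library totals in place of TMM the median of all genes moved to 0.49 in both, and the lower share of called genes from 46.9% to 9.69% in Ripk3KO and from 44.9% to 10.3% in MlklKO, and 9 members fell in each. In MlklKO on CD-HFD Mup9 had 2 counts and Mup15 had 1. Both could pass the filter on low counts through control libraries alone, so their calls are not independent of that filter.

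All 7 central members fell in both knockouts. Mup7 was at 561 to 1830 TMM-scaled CPM (median 1710) in Ripk3KO control livers and at 14.8, 1.43, 2.71 and 1.02 on CD-HFD. Its log2 change was -8.28 (SE 0.949, adjusted p = 2.19e-09, n = 6 and 4). In MlklKO it was at 590 to 1780 (median 792) on control and at 1.39, 1.83 and 2.27 on CD-HFD, a change of -9.02 (SE 1.15, adjusted p = 2.36e-08). The groups did not overlap in either genotype, and replicate 1 stood apart from the other Ripk3KO CD-HFD livers. Mup17 changed by -8.28 (SE 0.976) on the log2 scale in Ripk3KO and by -7.55 (SE 1.14) in MlklKO, and Mup11 fell by 6.38 (SE 0.826) in Ripk3KO and fell by 6.55 (SE 0.977) in MlklKO. Smaller changes were measured for Mup12, -5.09 (SE 0.511) and -5.61 (SE 0.653), and Mup1, -4.89 (SE 0.461) and -3.65 (SE 0.532). For the rarest counts the ratio of summed counts is given with an exact 95% interval that covers counting error only. Mup15 changed by -9.18 (SE 0.955) on the log2 scale in Ripk3KO. It had 4982 counts in 6 MlklKO control libraries and 1 in 3 on CD-HFD, 2740 times lower (492 to 108000). Mup9 was 182 times lower in Ripk3KO (61.9 to 886, 3 counts against 481) and 67.1 times lower in MlklKO (18.4 to 557, 2 counts against 244). MlklKO control replicate 6 held 2892 of the 4982 Mup15 counts and 162 of the 244 Mup9 counts. Without it the fitted log2 change in MlklKO went from -10.98 to -10 for Mup15, from -5.79 to -4.49 for Mup9 and from -7.55 to -6.78 for Mup17. Without MlklKO CD-HFD replicate 2 it was -13.12 for Mup15, -8.41 for Mup17, -7.48 for Mup11, -6.73 for Mup12 and -4.25 for Mup1. In Ripk3KO it was -9.68 for Mup7 and -7.19 for Mup11 without CD-HFD replicate 1, and -8.22 for Mup9, against -7.28, without CD-HFD replicate 2. All of these remained past the threshold.

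The members outside the central group were Mup3, Mup21 and Mup20. Mup3 was at 6500 to 11100 (median 9020) in Ripk3KO control livers and at 744, 792, 561 and 804 on CD-HFD, a log2 change of -3.63 (SE 0.253, adjusted p = 6.38e-15). The MlklKO values were 5020 to 7180 (median 6750) against 506, 643 and 366, a change of -3.65 (SE 0.287, adjusted p = 1.58e-13). Control and CD-HFD values of Mup3 were far apart in both. Mup21 changed by -2.66 (SE 0.326) and -3.02 (SE 0.379). Mup20 differed by -0.43 (SE 0.238, adjusted p = 0.141) in Ripk3KO, where it did not pass, and fell by 0.65 (SE 0.265, adjusted p = 0.0436) on the log2 scale in MlklKO. That MlklKO call held in 3 of 10 other settings and in 4 of 9 fits that left out a library (adjusted p up to 0.746), and with library totals the Ripk3KO value changed sign to 0.12. Mup20 was at 5910, 3810, 4100 and 3020 in Ripk3KO on CD-HFD, within the range of 4320 to 7850 on control for the highest of them only, and at 2380, 3160 and 2610 in MlklKO against 3060 to 6590, where 1 of the 3 overlapped control.

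**Figure D3:**
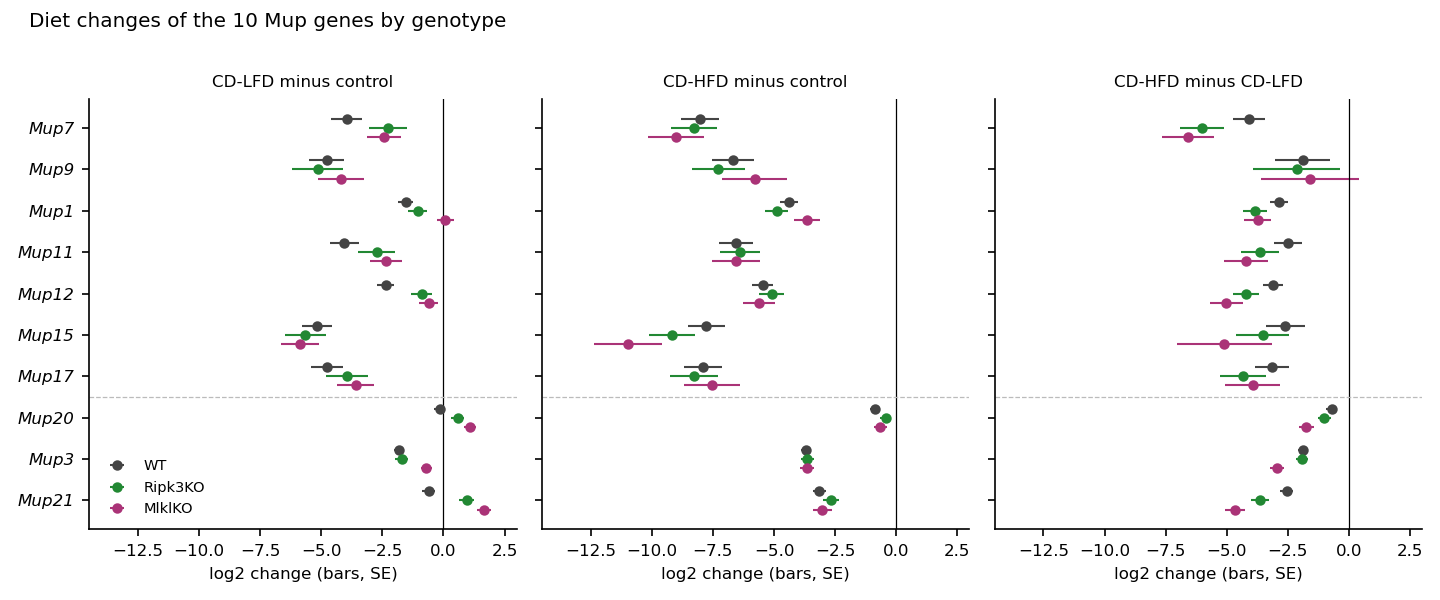
Log2 change (point) and SE (bar) of each member for 3 diet comparisons, by genotype; the dashed line separates the 7 central members from Mup20, Mup3 and Mup21. Central members lie far to the left on CD-HFD in all genotypes, while on CD-LFD Mup20 and Mup21 lie right of 0 in both knockouts.

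On CD-LFD the family did not move as a block in the knockouts. In Ripk3KO 7 members fell and 1 rose (10.1% of all genes were lower and 14% higher, median log2 change -1.99 against 0.01 for all genes). In MlklKO 6 fell and 2 rose (18.3% lower and 19.7% higher, -1.53 against 0.06). Mup21 rose in both. It was at 169 to 382 TMM-scaled CPM (median 207) in Ripk3KO control livers and at 389, 579 and 436 on CD-LFD, with no overlap, a log2 change of 0.96 (SE 0.308, adjusted p = 0.0201). Without Ripk3KO CD-LFD replicate 3, the library with the most Xist, or without replicate 2, this rise did not pass (adjusted p up to 0.0947), and without replicate 3 only 4 members were called in Ripk3KO in place of 8. In MlklKO it went from 123 to 187 (median 163) to 677, 510, 543 and 230, again without overlap, a change of 1.64 (SE 0.286, adjusted p = 2.91e-05). Mup20 rose in MlklKO, from 3060 to 6590 (median 3830) to 10100, 9730, 6710 and 9510, a change of 1.08 (SE 0.232, adjusted p = 0.000409), with every CD-LFD liver above every control liver. In Ripk3KO it was at 7890, 6120 and 11300 against 4320 to 7850 on control (log2 0.58, SE 0.253, adjusted p = 0.0879). With library totals 6 members fell and 2 rose in each knockout, and the lower share of called genes moved from 42% to 11.6% in Ripk3KO and from 48.1% to 33.9% in MlklKO.

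The members that fell on CD-LFD were central members and Mup3. Mup15 changed most, by -5.66 (SE 0.85) in Ripk3KO and -5.89 (SE 0.773) in MlklKO on the log2 scale. Its values were 4.79, 1.69 and 5.29 TMM-scaled CPM in Ripk3KO and 2.37, 4.62, 0.962 and 0.298 in MlklKO, against at least 85.7 and 32.1 on control. Mup9 changed by -5.15 (SE 1.04) and -4.21 (SE 0.941), the latter -2.9 without MlklKO control replicate 6. Mup17 changed by -3.95 (SE 0.85) and -3.6 (SE 0.743), Mup11 by -2.73 (SE 0.754) and -2.35 (SE 0.656), and Mup7 by -2.27 (SE 0.769) and -2.43 (SE 0.69). In Ripk3KO the Mup7 call was lost without CD-LFD replicate 1 or 3 and without the 4 libraries left out together (adjusted p up to 0.168), and the Mup11 call without replicate 3 (adjusted p = 0.0615). In MlklKO, leaving out control replicate 6 moved Mup15 to -4.91 and Mup17 to -2.83, with both calls kept, and leaving out CD-LFD replicate 2 moved Mup15 to -6.51. Mup3 fell by 1.71 (SE 0.256) in Ripk3KO and by 0.7 (SE 0.219) in MlklKO, where the call was lost without CD-LFD replicate 4 (adjusted p = 0.067). Mup12 did not pass in either knockout (-0.9 and -0.6, adjusted p = 0.121 and 0.212). Mup1 differed by -1.05 in Ripk3KO (adjusted p = 0.0433) and by 0.08 in MlklKO (adjusted p = 0.872). The Ripk3KO call was kept in 6 of 10 other settings and in 2 of 9 fits that left out a library (adjusted p up to 0.259).

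Between the choline-deficient diets, 9 of 10 members were lower on CD-HFD in each knockout (3.08% of all genes in Ripk3KO and 9.14% in MlklKO were lower). Mup9, with 3 counts against 9 in Ripk3KO and 2 against 10 in MlklKO, was the member that did not pass. Mup21 had the smallest adjusted p in both, 9.97e-09 for -3.62 (SE 0.364) and 4.34e-10 for -4.66 (SE 0.423). Mup20 changed as well, by -1 (SE 0.277, adjusted p = 0.0159) and by -1.73 (SE 0.294, adjusted p = 3.37e-05) on the log2 scale. The Ripk3KO call of Mup20 was lost with library totals and without either of 2 libraries, Ripk3KO CD-LFD replicate 3 and CD-HFD replicate 5 (adjusted p up to 0.144), and without the 4 libraries left out together 7 members were called there. Mup15 passed weakly (adjusted p = 0.0337 and 0.0494), and its lower level on CD-HFD in Ripk3KO was already known. Its call held in 2 of 7 fits that left out a library in Ripk3KO (adjusted p up to 0.139) and was lost there without those 4 libraries. In MlklKO it held in 4 of 9 other settings and in 2 of 7 such fits. Without MlklKO CD-HFD replicate 2, Mup15 was at -7.23 in place of -5.09 and did not pass, and Mup12 was at -6.13 in place of -5.01. The MlklKO call of Mup17 (-3.94, adjusted p = 0.00824) was lost without CD-HFD replicate 4 (adjusted p = 0.0632). In Ripk3KO Mup7 was at -7.41 in place of -6.01 without CD-HFD replicate 1. With library totals 8 members were called in each knockout, and the lower share of called genes moved from 34.9% to 11.2% and from 38.6% to 7.5%.

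The knockouts are set beside WT within each diet as a description only. The WT livers hold the values that chose the members, so no p is given for a member in a difference from WT, and nothing is read from the counts of members past the threshold. On control chow 5 members were past it and lower in MlklKO than in WT, where 14.1% of all genes were lower. The log2 differences were -0.86 (SE 0.212) for Mup20, -1.07 (SE 0.263) for Mup21, -1.14 (SE 0.339) for Mup12, -1.04 (SE 0.309) for Mup1 and -1.67 (SE 0.57) for Mup17. Mup20 was at 3060 to 6590 TMM-scaled CPM (median 3830) in MlklKO and 4810 to 11300 (median 7260) in WT, and Mup21 at 123 to 187 (median 163) and 197 to 664 (median 269). The Mup20 ranges overlapped and those of Mup21 did not. With the clock side as a covariate 1 member was past the threshold, and likewise 1 among low-side libraries alone, where only 2 WT control livers remain. Without WT control replicate 6 there were 3, and Mup17 was at -0.89, while without MlklKO control replicate 6 it was at -2.44. On the low clock side Mup17 changed sign, to 0.34, and Mup12 was at -0.04 and Mup1 at -0.25. For Ripk3KO minus WT on control none of the 10 was past the threshold (4.47% of all genes were). The 2 knockouts share no library with WT and their difference was tested. On control only Mup1 passed in MlklKO minus Ripk3KO, at -1.17 (SE 0.305, adjusted p = 0.0144), where 3.2% of all genes were lower, and without MlklKO control replicate 6 4 members did. The members ran from -1.45 to -0.41 there (median -0.69, against -0.01 for all genes), 5 of them at an unadjusted p under 0.05.

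On CD-LFD 2 members were past the threshold and higher in MlklKO than in WT, where 1.64% of all genes were higher. Mup21 was at 677, 510, 543 and 230 TMM-scaled CPM against 130 to 309 (median 213) in WT, a log2 difference of 1.17 (SE 0.285). Mup3 was at 4190, 4520, 4300 and 2550 against 1380 to 3440 (median 2280), a difference of 0.74 (SE 0.212). MlklKO CD-LFD replicate 4 lay within the WT range for both genes. Neither was past the threshold with the clock side as a covariate, and all WT CD-LFD livers are on the high side, so genotype and clock side cannot be told apart on this diet. With library totals 1 member was past it, and the lower share of called genes moved from 36.2% to 83%. For Ripk3KO minus WT on CD-LFD none of the 10 was (1.1% of all genes were). Mup21 was at 389, 579 and 436 TMM-scaled CPM in Ripk3KO, all above the WT range, for a log2 difference of 1.11 (SE 0.307).

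On CD-HFD no member was past the threshold in Ripk3KO minus WT (0.377% of all genes were) or in MlklKO minus WT (0% by edgeR). In MlklKO minus WT the members ran from -3.09 to -0.3 on the log2 scale (median -1.11, against 0.03 for all genes). With no gene called in that comparison, the lack of a member past the threshold says little. The precision differed between genes: for Mup3 the 95% interval of the MlklKO minus WT log2 difference ran from -0.81 to 0.13, while that of Mup15 ran from -7.72 to 1.54. Between the knockouts, MlklKO minus Ripk3KO gave no member on CD-LFD (0.0606% of all genes, no member at an unadjusted p under 0.05) or on CD-HFD (0.0336%, 3 members at an unadjusted p under 0.05), by edgeR or DESeq2.

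The change from control to each choline-deficient diet is likewise set beside that of WT as a description, since 1 of its 2 parts is the WT change that chose the members. On CD-LFD 5 members were past the threshold in MlklKO, where 4.37% of all genes were higher, and nothing is read from this count. The change was higher than in WT for Mup21 by 2.24 on the log2 scale (SE 0.388), Mup12 by 1.77 (SE 0.507), Mup1 by 1.62 (SE 0.458), Mup20 by 1.24 (SE 0.314) and Mup3 by 1.11 (SE 0.287). The median was 1.39 for the members and 0.05 for all genes. With library totals the median of all genes was -0.11 and the lower share of called genes moved from 48.3% to 74.1%. For Mup20 the means were 7720 ± 2660 and 6900 ± 1550 TMM-scaled CPM on control and CD-LFD in WT, and 4250 ± 1320 and 9010 ± 1550 in MlklKO. Mup21 went from 330 ± 175 to 218 ± 59.2 in WT and from 157 ± 30.3 to 490 ± 188 in MlklKO. Mup3, in contrast, was lower on CD-LFD in both, 8170 ± 1140 and 2330 ± 744 in WT and 6330 ± 932 and 3890 ± 903 in MlklKO.

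Without MlklKO CD-LFD replicate 1 neither Mup1 nor Mup12 was past the threshold in MlklKO, and without WT control replicate 5 Mup12 was not. Without the 4 libraries left out together, 3 members were past it. No WT CD-LFD liver is on the low clock side, so no value within that side exists. None of the 10 was past the threshold for CD-LFD in Ripk3KO (0.0269% of all genes were). The median there was 0.77 for the members and 0.05 for all genes. Mup21 was at 1.56 (SE 0.404), Mup12 at 1.48 (SE 0.53), Mup7 at 1.7 (SE 0.872) and Mup20 at 0.74 (SE 0.33). Mup9 (-0.37) and Mup15 (-0.48) lay below 0. Whether the 2 knockouts differ in the change from control to CD-LFD was not tested. For CD-HFD no member was past the threshold in Ripk3KO (0.478% of all genes were) or MlklKO (4.12%).

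**Figure D4:**
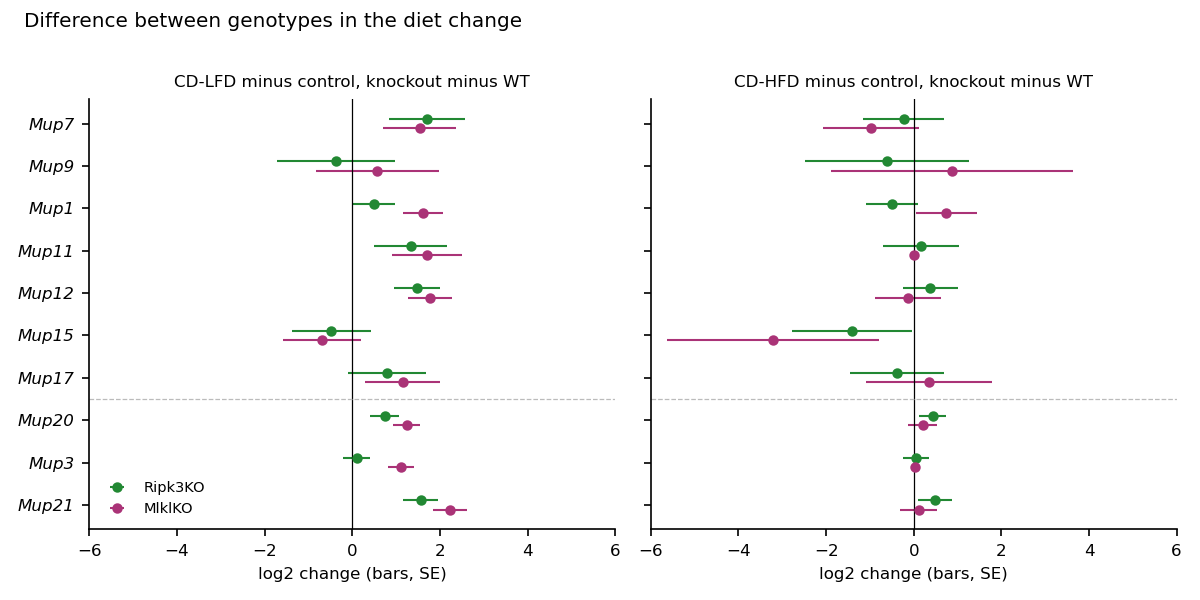
Difference between each knockout and WT in the log2 change from control (point, with SE as bar; no bar where the difference is under 0.05), for CD-LFD and CD-HFD. In MlklKO on CD-LFD 9 of the 10 points lie right of 0, from 0.57 to 2.24, with Mup15 at -0.7.

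In the MlklKO control group replicate 6 was the highest library for 7 of 7 central members. It held 431 TMM-scaled CPM of Mup15 against 32.1 to 86.8 in the other 5, 472 of Mup17 against 45.8 to 164, and 24.2 of Mup9 against 0.434 to 4.27. The same liver was also the highest for Mup20, at 6590 against 3060 to 4910, but not for Mup3. Among WT controls, replicate 6 was highest for 4 of 7 central members, with 1510 of Mup17 against 89.1 to 534, while its Mup7, at 560, was the lowest. After group means were subtracted, the correlation of a member with the mean of the other 9 over the 44 libraries ran from 0.29 for Mup20 and 0.45 for Mup3 and Mup21 to 0.87 for Mup11. These coefficients share library depth and, among the central members, reads.

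**Figure D5:**
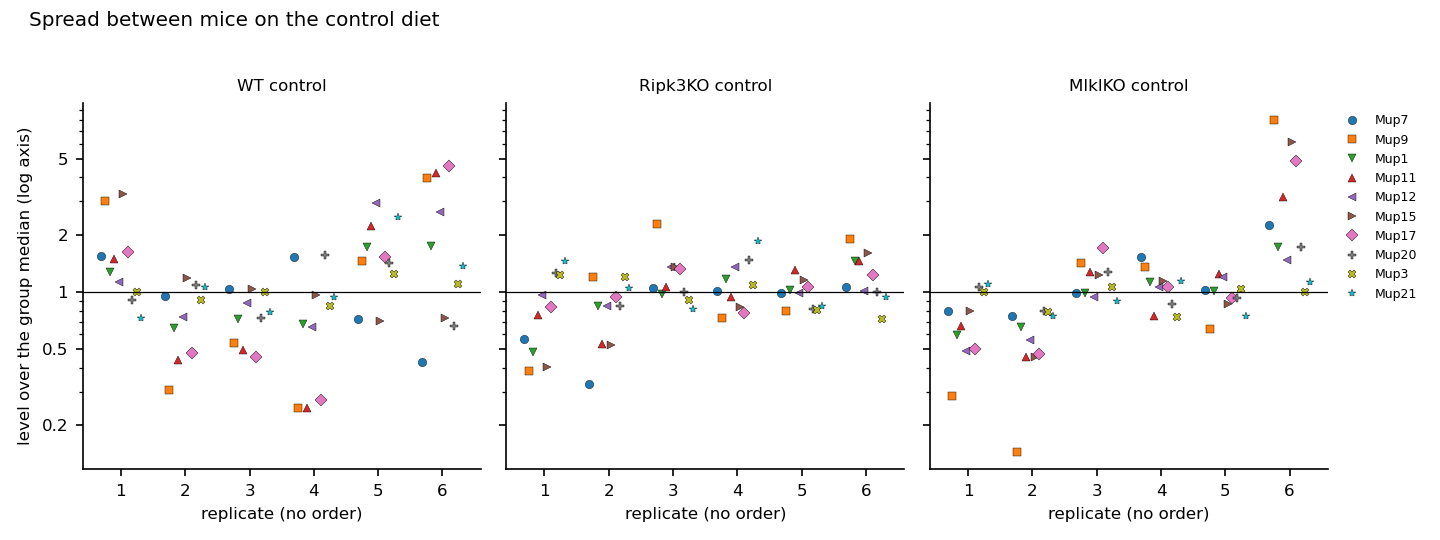
Level of each member in each control-diet liver divided by its group median, on a log axis; replicates have no order. In the MlklKO panel replicate 6 lies above the others for all 7 central members, while in the WT panel replicate 6 is highest for 4 of them and replicate 1 for 2.

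Genes whose pattern over the 44 libraries was most like the family's mean log2 CPM are given as a description, with no p. They were Cyp2d9 (Pearson r 0.96), Slc22a28 (0.95), Hsd3b5 and Haao (0.94), and Susd4, Sult2a8, Slco1a1 and Nudt7 (0.93). These values reflect the diet groups above all. With group means subtracted, Zfp981 (0.63), Hsd3b5 (0.61), Calr (0.57), Abhd14a, Cd80 and Lama3 (0.55), Greb1l (0.54) and Inhbc (0.52) came closest. Hsd3b5, a steroid dehydrogenase of male liver, was the gene present in both sets.

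Genes outside the family that are known to differ between male and female liver were counted in lists. These lists and those below were chosen with earlier results of these data known, so their counts are not independent support. Of 18 tested male-biased genes, 18 fell on CD-HFD in Ripk3KO and 18 in MlklKO (21.7% and 20.3% of all genes were lower), with a median log2 change of -2.44 and -2.92. On CD-LFD 11 and 9 fell (10.1% and 18.3% of all genes) and none rose (medians -1.16 and -0.89). On CD-HFD Hsd3b5 changed by -7.72 (SE 0.883) in Ripk3KO and -8.09 (SE 1.07) in MlklKO, and the organic anion carrier Slco1a1 by -4.16 (SE 0.481) and -4.01 (SE 0.544). Cyp2d9, a male-specific cytochrome, changed by -2.44 (SE 0.249) and -2.64 (SE 0.284), Cyp4a12a by -1.93 (SE 0.318) and -3.29 (SE 0.39), and the fatty acid elongase Elovl3 by -3.75 (SE 0.616) and -5.08 (SE 0.774). Of 19 tested female-biased genes, 9 rose and 3 fell in Ripk3KO and 12 rose and 2 fell in MlklKO on CD-HFD (24.6% and 24.9% of all genes were higher). Cyp2b9 rose by 4.26 (SE 0.599) and 6.98 (SE 0.808), from 0.885 ± 0.666 and 0.124 ± 0.239 TMM-scaled CPM on control to 17.1 ± 7.93 and 18.5 ± 8.75. A1bg passed in neither knockout (adjusted p = 0.0805 and 0.2), and its mean was lower on CD-HFD. It went from 1.22 ± 1.73 to 0.285 ± 0.203 TMM-scaled CPM in Ripk3KO and from 0.256 ± 0.396 to 0 in MlklKO. Sult3a1 did not pass the filter on low counts.

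Among 14 genes of the growth hormone and STAT5 axis, 1 rose and 5 fell on CD-HFD in each knockout, where 21.7% and 20.3% of all genes were lower and 24.6% and 24.9% higher (list medians -0.5 and -0.48). The growth hormone receptor Ghr changed by -1.2 (SE 0.205) in Ripk3KO and -1.16 (SE 0.228) in MlklKO, and Igf1, the main hormone made in response, by -0.48 (SE 0.203) and -0.57 (SE 0.225). Cux2, a repressor of male-biased genes that is normally high in female liver, rose by 1.81 (SE 0.578) and 2.16 (SE 0.763), at 1.42 ± 0.618 and 0.746 ± 0.208 TMM-scaled CPM on CD-HFD. Stat5b did not pass in either (-0.19 and -0.27, adjusted p = 0.414 and 0.3). Bcl6, a repressor that acts against STAT5, fell in Ripk3KO (-1.85, SE 0.548) and was at -1.17 in MlklKO (adjusted p = 0.108). Socs2, a target and inhibitor of growth hormone signalling, fell in MlklKO (-1.83, SE 0.664) and was at 0.21 in Ripk3KO (adjusted p = 0.783). On control chow Socs2 was higher in MlklKO than in WT by 1.9 (SE 0.518, adjusted p = 0.00573), at 126 ± 91.1 against 33.5 ± 28 TMM-scaled CPM.

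Of 15 tested liver transcription factors 9 fell in Ripk3KO and 4 in MlklKO on CD-HFD, and none rose. Among all genes 21.7% and 20.3% were lower, so the MlklKO share is near that of all genes. Hnf4a changed by -1.25 (SE 0.219) and -1.22 (SE 0.243). Cebpa fell in Ripk3KO (-0.67, SE 0.2) and was at -0.34 in MlklKO (adjusted p = 0.208). Zhx2, a regulator of Mup and other liver genes, was at -0.49 and -0.34 on CD-HFD (adjusted p = 0.14 and 0.373) and changed on CD-LFD by -0.83 (SE 0.312) and -0.76 (SE 0.277).

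Of 14 tested genes for other abundant secreted liver proteins, 11 fell in Ripk3KO and 7 in MlklKO on CD-HFD (21.7% and 20.3% of all genes were lower), with medians of -0.63 and -0.54. Those medians are of the size of the Mup20 differences (-0.43 and -0.65). Alb fell in Ripk3KO by 0.66 (SE 0.221) and was at -0.45 (adjusted p = 0.123) in MlklKO, and Ttr changed by -0.99 (SE 0.22) and -0.86 (SE 0.243). Azgp1, a zinc-binding plasma glycoprotein, fell by 0.5 (SE 0.152) in Ripk3KO and was at -0.31 (adjusted p = 0.131) in MlklKO. Markers of the cell types in the tissue moved with the diets. Hepatocyte markers fell in 6 of 7 in Ripk3KO and 4 of 7 in MlklKO on CD-HFD (medians -0.85 and -0.86), and their summed level was 61700 to 87900 and 67800 to 90700 TMM-scaled CPM, against 106000 to 148000 and 102000 to 120000 on control. Macrophage markers rose in 6 and 7 of 8 (medians 2.83 and 3.41, summed level 1390 to 2440 across both knockouts against 61.8 to 391 on control), cholangiocyte markers in 6 of 6 in each (medians 3.77 and 3.28), stellate and myofibroblast markers in 6 of 7 in each (1.52 and 1.49) and lymphocyte markers in 6 of 6 in each (2.8 and 3.48). Endothelial markers fell in 4 and 1 of 6. Among all genes 24.6% and 24.9% were higher on CD-HFD. On CD-LFD 14% and 19.7% of all genes were higher and 10.1% and 18.3% lower in Ripk3KO and MlklKO. Hepatocyte markers fell on CD-LFD in 2 of 7 in Ripk3KO (median -0.42), and in MlklKO 3 fell and 1 rose (median -0.02). There macrophage markers rose in 4 and 5 of 8, lymphocyte markers in 5 and 6 of 6, stellate and myofibroblast markers in 5 and 3 of 7, and cholangiocyte markers in 6 of 6 in Ripk3KO (median 2.4) and none in MlklKO (median 0.81). Endothelial markers fell in 3 and 4 of 6, and 1 rose in Ripk3KO. Beside the higher Mup20 and Mup21 of MlklKO on CD-LFD, 2 of the 14 other secreted proteins rose and 2 fell (median -0.03), shares no higher than those of all genes, with Ttr at 5550 ± 749 TMM-scaled CPM on control and 8440 ± 464 on CD-LFD. In whole tissue fewer hepatocytes and less RNA per hepatocyte cannot be told apart, and the part of tissue makeup in the Mup changes was not tested.

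Of 14 other Mup rows that passed the filter, 9 fell and none rose in Ripk3KO on CD-HFD (median log2 change -1.64, from -6.3 to 0.41), and 8 fell and none rose in MlklKO (median -2.14, from -8.4 to 0.87). Among all genes 21.7% and 20.3% were lower. On CD-LFD 3 fell in Ripk3KO (10.1% of all genes), and 2 fell and 2 rose in MlklKO (18.3% and 19.7% of all genes). With every Mup row summed into 1 before the fit, which no longer depends on how reads were split, the family changed by -1.83 on the log2 scale in Ripk3KO and -1.94 in MlklKO on CD-HFD, values set mainly by Mup20 and Mup3.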

How the data were processed

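RNA-seq of whole mouse liver gave 1 library for each of 44 mice, and the labels name the mice but no sex, litter or batch, so p-values measure the spread between the mice as sampled. The authors deposited raw counts per Ensembl gene for 35249 genes. Per the submitters' processing notes the tools were FastQC, STAR, HTSeq, edgeR and limma and the builds GRCm39 and mm39, with no versions or roles. How reads that match several Mup copies were handled is not given in the sources used here, and it bears on every central member. Gene symbols came from a name table, with 34373 IDs matched and 876 not.

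Genes were kept by filterByExpr with a minimum count of 10 (14862 genes, 99.8% of counts) and scaled by TMM (factors 0.799 to 1.34). The counts were fitted in edgeR 4.0.16 (R 4.3.3, limma 3.58.1) with 9 group means over all 44 libraries and tested by the quasi-likelihood F test. P-values were adjusted by Benjamini-Hochberg over all genes within each comparison, with a threshold of 0.05. SEs were computed from the log2 change and F. The pipeline was tested on simulated data. The members and gene lists were chosen with earlier results of these data known. The text names the 10 members, other Mup rows by count, the 8 genes most like the family by each measure, and genes fixed within each list, of which 2 are not reported here. Alternatives were other size factors, no count filter, DESeq2 1.42.0, a replicate block, a clock covariate, fits on the groups compared only, Mup counts left out of the totals and leaving out each library. Fits on the low clock side and without 4 doubted libraries (named in the report, with the measures that set them apart) were added after seeing the data. Replicate numbers were not used to pair the mice in the main fit, and correlations of same-numbered mice are given in the closing section. Coding sequences came from GENCODE M21 and promoters from RefSeq (GRCm38.p6), not the build of the counts, so no count was placed by coordinate.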

Additional observations from a re-analysis of the deposited data

Results flagged for a closer look

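Of 70 sets of 1 member in 1 group of 4 or 6 mice, 11 held a mouse standing apart from all others. The rule used marks about 1 in 20 sets by chance if values are normally distributed. It was applied to CPM without logs, where skewed values are marked more often, so that rate does not hold here. The members are also not independent of each other. MlklKO control replicate 6 stood apart in 4 of them, with Mup9 at 24.2 TMM-scaled CPM (others 0.434 to 4.27), Mup11 at 676 (others 98.6 to 274), Mup15 at 431 (others 32.1 to 86.8) and Mup17 at 472 (others 45.8 to 164). Ripk3KO CD-HFD replicate 1 was highest for Mup7, at 14.8 (others 1.02 to 2.71), and Mup11, at 15 (others 2.3 to 4.44). In WT, control replicate 1 was at 283 for Mup15 (others 61.6 to 103), control replicate 6 at 1510 for Mup17 (others 89.1 to 534), control replicate 5 at 664 for Mup21 (others 197 to 368) and CD-HFD replicate 6 at 2.48 for Mup15 (others 0 to 0.242). The one low value was Mup3 in MlklKO CD-LFD replicate 4, at 2550 (others 4190 to 4520).

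The change from control to CD-LFD was higher in MlklKO than in WT by 2.24 on the log2 scale for Mup21, 1.77 for Mup12, 1.62 for Mup1, 1.24 for Mup20 and 1.11 for Mup3, past the threshold of the interaction term in edgeR. The WT change inside these differences is the one that chose the members, so they are given as values and not as independent evidence.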

How the results depend on the processing

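Across 10 other settings and 44 fits that each left out a library, 385 of 412 counts of called members over 19 comparisons, those with WT given as description only, stayed within 1.5 times the reported count, and in 13 comparisons all did. Values of single members were recomputed for 9 of these, the 6 knockout diet comparisons and MlklKO against WT on control, on CD-LFD and in the change between them. Of 1836 such values 1711 kept direction and side of the threshold, 92 lost and 14 gained a call, and 19 changed sign. The 5 members lower in MlklKO than WT on control became 1 with the clock covariate, 1 on the low clock side, 1 without the 4 doubted libraries and 3 with the compared groups only, and ranged from 3 to 7 when a library was left out. The 2 members higher in MlklKO on CD-LFD became 0 with the clock covariate and 1 with RLE size factors, library totals, no count filter, the compared groups only or the replicate block (0 to 2 with a library left out). For Ripk3KO minus WT on CD-LFD 0 became 1 without the count filter or with the compared groups only (0 to 1). MlklKO minus Ripk3KO on control went from 1 to 3 with the replicate block and 2 on the low clock side (1 to 4). The interaction of MlklKO with CD-LFD went from 5 to 3 without the doubted libraries (3 to 5), and the Ripk3KO CD-LFD count ranged from 4 to 8. The cause was not tested.

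Values that changed sign were Mup20 in Ripk3KO on CD-HFD with library totals (0.12) and, for MlklKO minus WT on control, Mup9 (1.06 with the clock covariate, 1.34 on the low side), Mup11 (0.14 and 0.79), Mup17 (0.34 on the low side) and Mup15 (-0.28 with the replicate block, -0.16 without the doubted libraries, -0.86 to 0.63 with a library left out). On CD-LFD MlklKO minus WT reached 2.06 for Mup9 and 1.19 for Mup17 with the clock covariate. In the interaction Mup9 was at -0.01 without the doubted libraries, and Mup15 ran from -1.33 to 0.27 with a library left out. Mup1 in MlklKO on CD-LFD ran from -0.11 to 0.29. Of the WT diet values 18 of 638 moved by more than the spread between mice. On the low clock side the CD-HFD change from control was -4.27 for Mup9, -4.29 for Mup11 and -5.74 for Mup17, and with the clock covariate CD-HFD against CD-LFD was -0.01 for Mup9 and -0.9 for Mup11.

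The log2 ratio of the summed family share of library totals was -1.47 (WT CD-HFD), -0.70 (WT CD-LFD), -1.29 (Ripk3KO CD-HFD), -0.22 (Ripk3KO CD-LFD), -1.41 (MlklKO CD-HFD) and 0.28 (MlklKO CD-LFD). On TMM-scaled CPM the first 5 were -1.96, -1, -1.83, -0.54 and -1.94, and with Mup rows summed before the fit -1.97, -1, -1.83, -0.54 and -1.94. The last moved by less than the spread between mice.

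Counts over all genes moved by over 1.5 times in 41 cases. For MlklKO minus WT on control 4029 became 2528 with the clock covariate, 1739 with the compared groups only and 1905 on the low side, and on CD-LFD 381 became 1 with the clock covariate, 873 with library totals and 633 by DESeq2. For Ripk3KO minus WT on control 665 became 123 with the clock covariate and 139 on the low side. It became 45 with the compared groups only and 307 without the doubted libraries. Ripk3KO CD-LFD went from 3576 to 2252 with the compared groups only and 1855 without the doubted libraries, Ripk3KO CD-HFD against CD-LFD from 1312 to 2821, and the MlklKO interaction with CD-LFD from 1256 to 741, both with the compared groups only. Same-numbered mice correlated from -0.35 to 0.54 over 146 pairs (median -0.01), and 13 of 44 libraries correlated best with their own number. The number to be had by chance was not computed, so a pairing is neither shown nor excluded. Mup9, and Mup15 on CD-HFD, rest on few counts and are limited by depth.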
